A study of Mus musculus with 29 samples.

Results

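Mesenchymal cells of the common bile duct from mice labelled for deletion of both Gli2 and Gli3 were compared with cells from mice labelled for deletion of Gli3 alone, to see what the added loss of Gli2 changes when Gli3 is already deleted. The comparison takes 6 of the 29 libraries of the series, chosen by their genotype labels alone, and covers every gene that could be tested. The 4 Gli2FFGli3FF libraries come from Pdgfra:CreERT2; Rosa26:lox-STOP-lox-tdTomato mice with the Gli2FF and Gli3FF alleles. The 2 Gli3FF libraries come from mice with the same Cre and reporter and the Gli3FF alleles only, so both groups carry the Gli3 deletion and no wild type library enters. FF stands, by the usual convention, for a pair of loxP-flanked alleles, which the tamoxifen-activated recombinase CreERT2 removes in cells where the Pdgfra promoter is active. Other cells keep their alleles, and the labels used here give no age, sex or time of induction and do not say which exons are flanked. Each library was made from about 1000 sorted cells of an individual animal, amplified as full-length cDNA, and sequenced as bulk RNA. In bulk RNA, fewer cells of a type and less RNA per cell cannot be told apart.

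Gli2 and Gli3 are zinc finger transcription factors at the end of the Hedgehog pathway. Without ligand, the receptor Ptch1 holds Smo inactive, and Gli3 above all is cut into a repressor of target genes. With ligand, Smo is released, and full-length Gli2 is the main activator of targets such as Gli1, Ptch1 and Hhip, which amplify or damp the signal. Around ducts and in other organs with an epithelial lining, epithelial cells commonly make the ligand and the mesenchyme beneath responds.

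Levels are given as CPM, a gene's share of a library's counts, scaled to library sizes after TMM normalization, which do not correct for gene length and so compare libraries and not genes. Total counts were 23581747 to 38301189 in Gli2FFGli3FF libraries and 27372016 to 35599465 in Gli3FF libraries. The ribosomal RNA locus CT010467.1 took 49.2, 40.9, 50.03 and 38.4% of counts in the Gli2FFGli3FF libraries, against 39.1 and 24.5% in the Gli3FF libraries (exact permutation test, two-sided p = 0.2, where the smallest p that 4 against 2 libraries allow is 0.0667). Mitochondrially encoded genes took 7.61, 8.56, 7.82 and 7.11% of counts in the Gli2FFGli3FF libraries, against 6.43 and 4.84% in the Gli3FF libraries, with no overlap (p = 0.0667 by the same exact test). The ribosomal RNA share alone was entered in a fit, as a covariate, and the part of the mitochondrial share was not tested. The ribosomal RNA share partly follows the group, and the fit has only 6 libraries and so little power. A call lost in that fit therefore does not measure the part of the share. Several Gli2FFGli3FF libraries and Gli3FF replicate 2 hold transcripts of both sexes, although the protocol takes each library from a single animal. Gli2FFGli3FF replicates 1 to 4 had 20.7, 32.02, 12.8 and 4.34 CPM of Xist, the RNA of the inactive X chromosome, and 5.11, 0.391, 14.3 and 72.3 CPM of Y-linked Ddx3y. Gli3FF replicates 1 and 2 had 0.23 and 185 CPM of Xist and 35.1 and 32.6 CPM of Ddx3y. Results are therefore also given without single libraries, Gli3FF replicate 2 among them.

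The sorted identity was checked against marker genes. All 15 fibroblast markers were detected, Pdgfra itself at 179 to 214 CPM in Gli2FFGli3FF libraries and 184 to 230.4 CPM in Gli3FF libraries, with groups that overlap (-0.09 ± 0.20 (SE), adjusted p = 0.861). Their summed level was lower, 20660 to 28869 CPM in Gli2FFGli3FF libraries and 36194 to 42698 CPM in Gli3FF libraries (exact permutation test, two-sided p = 0.0667, the smallest possible). Most of this difference lay in the matrix genes Dcn, Col1a1 and Col1a2. Their mean levels were 9714, 1816 and 2075 CPM in Gli2FFGli3FF and 15683, 4900 and 4437 CPM in Gli3FF. Of the 15 markers, 3 had a positive and 12 a negative log2 change. Some defining genes of other cell types were at or near 0, while the summed markers of several types differed between the groups. Of 15 hepatocyte markers, Alb and Apob had no count in any of the 6 libraries. The sum was 181 to 479 CPM in Gli2FFGli3FF libraries and 790.3 to 897 CPM in Gli3FF libraries (p = 0.0667 by the same exact test). Much of this difference lay in Cyp2e1 alone, at 40.97 to 102 CPM in Gli2FFGli3FF libraries and 542 to 622 CPM in Gli3FF libraries. Cyp2e1 was the 1 lower gene of the 6 tested, and 4 of those 6 had a positive log2 change. Of 13 endothelial markers, Pecam1 and Cdh5 stayed at or below 1.05 CPM, but the sum was 11.1 to 28.1 CPM in Gli2FFGli3FF libraries and 4.91 to 7.51 CPM in Gli3FF libraries (p = 0.0667 by the same exact test). The 1 endothelial marker called, of 5 tested, was the angiopoietin receptor gene Tek, at 7.63 to 18.8 CPM in Gli2FFGli3FF libraries and 0.813 to 2.42 CPM in Gli3FF libraries (3.17 ± 0.62, adjusted p = 0.0389). Tek alone made up most of the endothelial sum in each Gli2FFGli3FF library. Of the 5 tested, 3 had a positive and 2 a negative log2 change. The cholangiocyte gene Epcam had 0, 2.53, 0 and 0.121 CPM in the Gli2FFGli3FF libraries and no count in the Gli3FF libraries. The sum of 16 cholangiocyte markers was 96.4 to 195 CPM in Gli2FFGli3FF libraries and 51.5 to 73.005 CPM in Gli3FF libraries (p = 0.0667 by the same exact test), and 1 of the 9 tested, Sox9, which is also made by other cells, was higher. That of 12 mesothelial markers was higher, 249 to 644 CPM in Gli2FFGli3FF libraries and 42.3 to 63.6 CPM in Gli3FF libraries (p = 0.0667 by the same exact test). The cholangiocyte and mesothelial lists share Krt8, Krt18 and Krt19, so these sums are not separate measures. Immune markers were high in Gli2FFGli3FF replicate 1, at a sum of 403 CPM, against 62.6 to 141 CPM in the other Gli2FFGli3FF libraries and 54.2 to 78.6 CPM in Gli3FF libraries.

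Among the 17025 genes that could be tested, Gli2FFGli3FF exceeded Gli3FF in 251 and lay below it in 263 at an adjusted p under 0.05 (edgeR quasi-likelihood test with Benjamini-Hochberg adjustment). These shares, 1.47% of genes higher, 1.54% lower and 3.02% called in either direction, are the background against which each gene group below is read. All adjusted p-values below are from this one test across all genes, and fold changes are log2 values of Gli2FFGli3FF over Gli3FF. The median absolute log2 change was 2.35 among called genes that were higher and 1.86 among those that were lower. In all 514 called genes every library of one group lay beyond every library of the other, which 33.1% of all tested genes did. The lower genes included the matrix genes Col1a1 and Mfap4, the signalling genes Bmp4 and Wif1 and 9 of 19 tested circadian clock genes. The higher genes included small structured RNAs such as Rn7sk, mesothelial genes such as Slpi and Wt1, and the matrix gene Fn1.

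**Figure D1:**
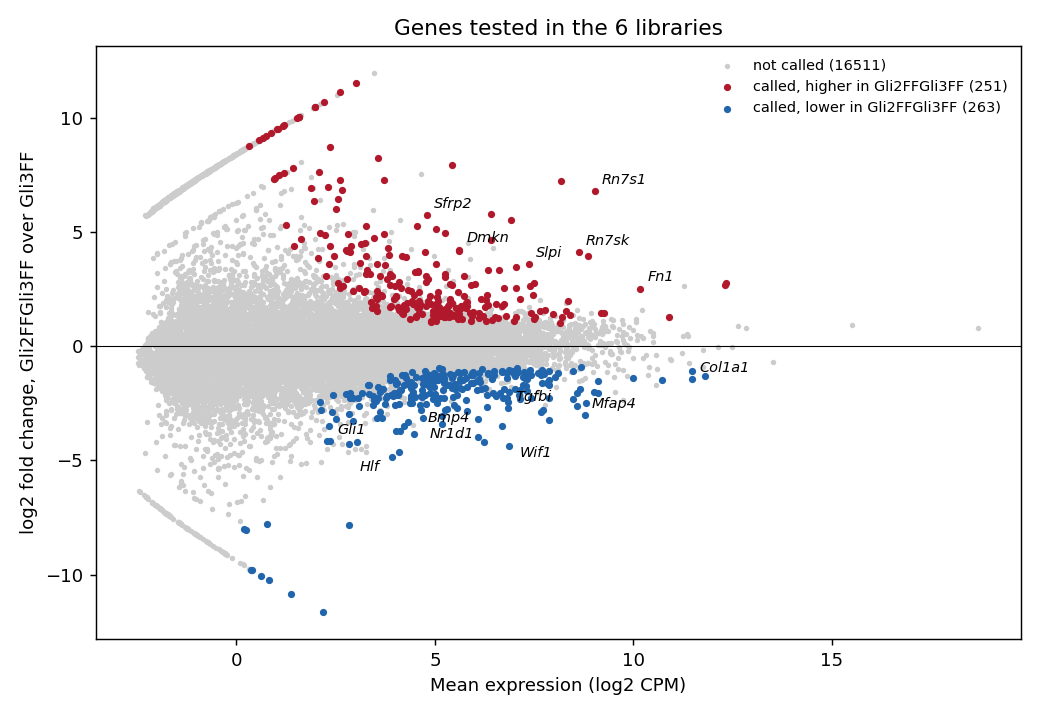
Each point is one of the 17025 genes tested, with its mean expression in log2 CPM on the horizontal axis and the log2 fold change of Gli2FFGli3FF over Gli3FF on the vertical axis. Red points mark the 251 genes called higher and blue points the 263 called lower, and the called genes with a mean log2 CPM above 10 include Col1a1 on the lower side and Fn1 on the higher side.

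The count of calls rested on few libraries. It was 145 to 368 when a Gli2FFGli3FF library was left out, 144 without Gli3FF replicate 1 and 68 without Gli3FF replicate 2, and 8 with the ribosomal RNA share as a covariate. All 514 genes kept their direction in each of these fits. For the fits without a library this was given in advance, because the groups of every called gene lay apart.

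The deleted genes came first. Gli2 (chromosome 1, 118834132 to 119053619, minus strand, mm10) had 1.1, 4.41, 3.79 and 4.22 CPM in the Gli2FFGli3FF libraries, against 6.3 and 18.9 CPM in the Gli3FF libraries. All 4 Gli2FFGli3FF libraries were below both Gli3FF libraries, and Gli3FF replicate 2 was well above replicate 1. The log2 change was -1.89 ± 0.64 (SE), adjusted p = 0.142, so Gli2 did not pass the test, and without Gli3FF replicate 2 it was -0.90. Gli3 (chromosome 13, 15463235 to 15730026, plus strand), whose alleles are flanked in both groups, had 5.39, 4.41, 1.98 and 4.51 CPM in the Gli2FFGli3FF libraries, against 10.5 and 8.87 CPM in the Gli3FF libraries. It was again lower in all 4 Gli2FFGli3FF libraries but did not pass the test (-1.25 ± 0.49 (SE), adjusted p = 0.193). Counts are per whole gene, so transcripts that lack only the flanked exons would still be counted, and these levels check the deletions only in part.

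Gli1, the Gli family member that is itself a target of the pathway, was lower in Gli2FFGli3FF. It had 0.191, 0.731, 0.302 and 1.77 CPM in the Gli2FFGli3FF libraries, against 6.07 and 21.03 CPM in the Gli3FF libraries, and the groups did not overlap. The log2 change was -4.16 ± 0.89 (SE), adjusted p = 0.0497. This call was close to the threshold: it held in 1 of 6 fits that left out a library, and the log2 change was -3.01 (adjusted p = 0.306) without Gli3FF replicate 2. The 2 other main feedback genes were lower on average without passing the test. Ptch1, the Hedgehog receptor, had 32.9, 22.8, 52.1 and 53.7 CPM in the Gli2FFGli3FF libraries, against 60.9 and 90.9 CPM in the Gli3FF libraries, a change of -0.91 ± 0.36, adjusted p = 0.201. Hhip, a membrane protein that binds and sequesters the ligands, had 0.859, 1.44, 6.72 and 9.82 CPM in the Gli2FFGli3FF libraries, against 23.9 and 15.3 CPM in the Gli3FF libraries. Gli2FFGli3FF replicates 1 and 2 were far below replicates 3 and 4 for Hhip, and the change was -2.06 ± 0.84, adjusted p = 0.21.

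Among the ligands, receptors and transducers of the pathway, 26 genes were tested, of which 0 were higher and 2 lower (at an unadjusted p under 0.05, 2 higher and 8 lower, and by DESeq2 2 and 3). The ligand genes Shh, Ihh and Dhh had no count in any of the 6 libraries. One of the 2 lower genes was Gli1, and the other was Gpc3, a cell surface glypican that binds Hedgehog ligands. Gpc3 had 131, 101, 193 and 136 CPM in the Gli2FFGli3FF libraries, against 436 and 389 CPM in the Gli3FF libraries, and the groups were well apart (-1.56 ± 0.27 (SE), adjusted p = 0.0259). The co-receptor Boc was lower and the co-receptor Gas1 higher in every Gli2FFGli3FF library than in both Gli3FF libraries, at log2 changes of -1.30 ± 0.29, adjusted p = 0.0569 for Boc and 1.03 ± 0.27, adjusted p = 0.0833 for Gas1, neither of which passed. Smo, which passes the signal into the cell, had 22.4 to 36.5 CPM in Gli2FFGli3FF libraries and 24.4 to 33.4 CPM in Gli3FF libraries, with overlapping groups (0.12 ± 0.28, adjusted p = 0.871).

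Of 23 tested Hedgehog feedback and target genes, 0 were higher and 4 lower (at an unadjusted p under 0.05, 3 higher and 9 lower, and by DESeq2 1 and 6), with a median log2 change of -0.63, where the median of all 17025 genes was -0.0024. Besides Gli1 the lower genes were Bmp4, Osr2 and Tcf21. Bmp4 (chromosome 14, 46383520 to 46390669, minus strand), a secreted BMP ligand that mesenchyme sends to epithelium, had 11.1, 17.8, 6.46 and 11.3 CPM in the Gli2FFGli3FF libraries, against 198 and 165 CPM in the Gli3FF libraries. Every Gli2FFGli3FF library was far below both Gli3FF libraries, and the change was -3.96 ± 0.36 (SE), adjusted p = 0.00445. Osr2, a zinc finger transcription factor of embryonic mesenchyme, had 12.1, 9.76, 14.7 and 17.8 CPM in the Gli2FFGli3FF libraries, against 108 and 74.0 CPM in the Gli3FF libraries. The groups were again far apart (-2.75 ± 0.29 (SE), adjusted p = 0.00571). Tcf21, a basic helix-loop-helix factor of fibroblast progenitors, had 32.97, 29.8, 42.6 and 67.5 CPM in the Gli2FFGli3FF libraries, against 195 and 163 CPM in the Gli3FF libraries, and a change of -2.05 ± 0.33, adjusted p = 0.0211. Bmp4 and Osr2 were called in all 6 fits that left out a library, while Tcf21 was called in 1 of them, and leaving out 1 library gave 2 to 5 lower genes on this list. Osr1, the close relative of Osr2, moved the other way without passing the test, with 55.8 to 71.9 CPM in Gli2FFGli3FF libraries and 40.0 to 42.7 CPM in Gli3FF libraries (0.56 ± 0.21, adjusted p = 0.184). Foxl1, a forkhead factor of gut mesenchyme, had no count in the 4 Gli2FFGli3FF libraries and 1.51 and 1.76 CPM in the Gli3FF libraries. With a floor of 3 counts per library it was at least 13.9-fold lower, but it did not pass the test (adjusted p = 0.0858).

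**Figure D2:**
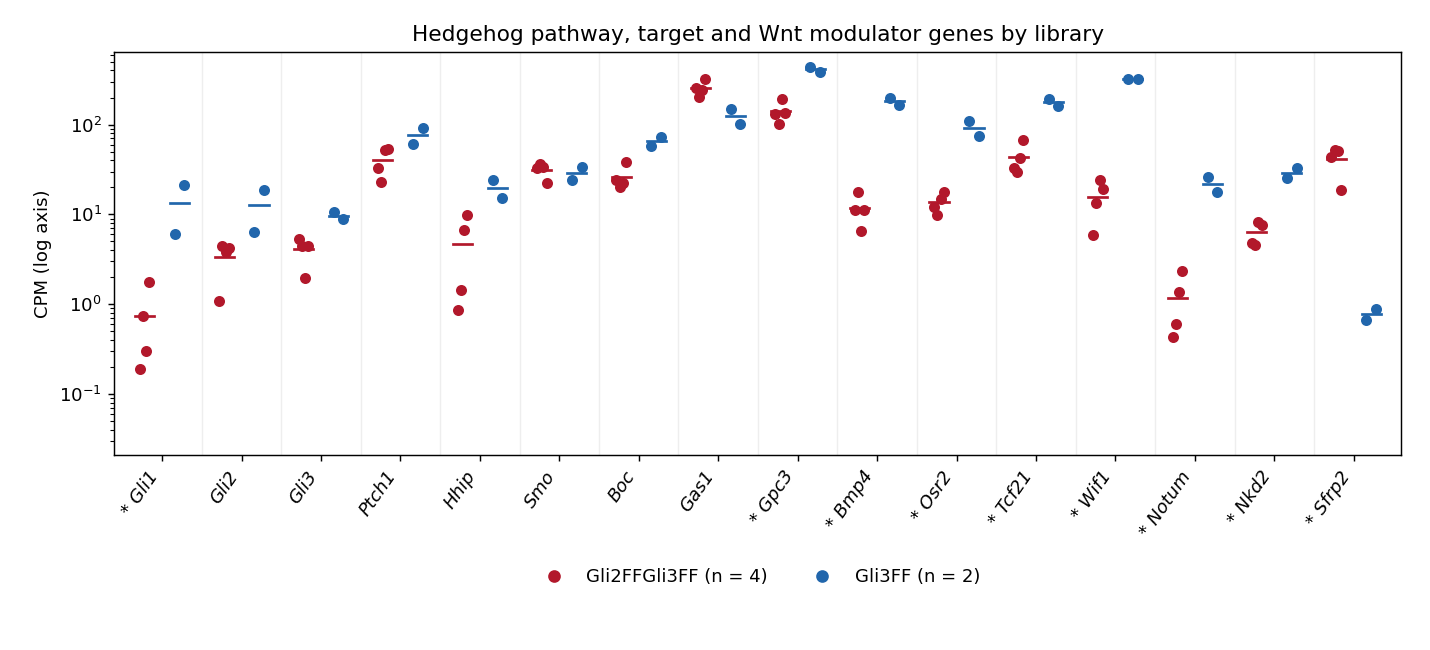
Each dot is the CPM of a gene in a library, on a log axis, with Gli2FFGli3FF (n = 4) in red to the left of Gli3FF (n = 2) in blue and a bar at each group's mean; an asterisk marks a called gene. Every red dot of Bmp4 and Wif1 lies far below the blue ones, Gli1 is low and scattered in Gli2FFGli3FF, and Smo overlaps.

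The consensus Gli site, GACCACCCA on either strand, was looked for in the RefSeq promoters (GRCm38.p6, 250 bases before to 50 bases after each start). It is in 83 of 32851 promoters (0.253%). It is in 0 of the 14 promoters found for 13 of the 23 tested target genes and in 0 of the 21 promoters found for 19 of the 26 tested ligand, receptor and transducer genes. Gli1 and Osr2 have no entry in that table. No match says only that these letters are not in these windows.

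Secreted modulators of Wnt signalling differed in both directions, with 1 of 15 tested genes higher and 4 lower. Wif1 (chromosome 10, 121033960 to 121100650, plus strand), Wnt inhibitory factor, had 5.92, 13.4, 23.9 and 18.99 CPM in the Gli2FFGli3FF libraries, against 321 and 318 CPM in the Gli3FF libraries. The Gli3FF libraries were nearly equal and every Gli2FFGli3FF library was far below them (-4.36 ± 0.46 (SE), adjusted p = 0.00571). Notum, an extracellular enzyme that strips the lipid from Wnt ligands, had 0.429, 0.6, 1.38 and 2.33 CPM in the Gli2FFGli3FF libraries, against 26.2 and 17.8 CPM in the Gli3FF libraries, a change of -4.21 ± 0.65, adjusted p = 0.0186. Nkd2, an intracellular antagonist carried on the same list, and Dkk3 were lower too (-2.20 ± 0.34, adjusted p = 0.0196 for Nkd2 and -1.21 ± 0.24, adjusted p = 0.0389 for Dkk3). The higher gene was Sfrp2, a secreted Frizzled-related protein, with 43.6, 52.3, 50.7 and 18.7 CPM in the Gli2FFGli3FF libraries, against 0.668 and 0.882 CPM in the Gli3FF libraries. Sfrp2 was near absent in both Gli3FF libraries, and Gli2FFGli3FF replicate 4 was the lowest of its group (5.73 ± 0.57 (SE), adjusted p = 0.00468). Wif1 and Sfrp2 were called in all 6 fits without a library, whereas the number of lower genes on this list was 1 without Gli2FFGli3FF replicate 2, Gli3FF replicate 1 or Gli3FF replicate 2.

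Of 20 tested genes listed as targets of Wnt/beta-catenin signalling, 0 were higher and 3 lower (at an unadjusted p under 0.05, 5 higher and 10 lower, and by DESeq2 4 and 7), and those 3 were Wif1, Notum and Nkd2, which the 2 lists share. The list's median log2 change was -1.05. Axin2, a widely used target of this pathway, had 10.9 to 24.9 CPM in Gli2FFGli3FF libraries and 26.3 to 31.6 CPM in Gli3FF libraries, with groups that did not overlap and a change of -0.91 ± 0.36, adjusted p = 0.201. Apcdd1 had 2.91 to 10.9 CPM in Gli2FFGli3FF libraries and 18.6 to 34.5 CPM in Gli3FF libraries (-2.27 ± 0.55, adjusted p = 0.0665). Among 10 tested Wnt ligands 1 was lower, Wnt16, with 0 to 0.0431 CPM in Gli2FFGli3FF libraries and 4.53 and 5.21 CPM in Gli3FF libraries (adjusted p = 0.0186).

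Extracellular matrix genes were lower across several lists. Over 6 lists of collagens, collagen enzymes, elastic fibre genes, proteoglycans, basement membrane genes and adhesive glycoproteins, each gene counted once, 127 genes were tested, of which 3 were higher and 26 lower. That is 22.8% called, where 3.02% of all genes were, and the median log2 change was -0.78. The number of lower genes was 9 to 21 when a Gli2FFGli3FF library was left out, 10 without Gli3FF replicate 1 and 5 without Gli3FF replicate 2. With the ribosomal RNA share as a covariate 0 were called, and 44 had an unadjusted p under 0.05 on the lower side. The summed fibroblast markers, 8 of which are on these lists, were lower too. Most of that difference lay in Dcn, Col1a1 and Col1a2, so the sum is not a separate measure. The part of the markers in the result was not tested.

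Among fibrillar collagens, the genes of collagen I were lower and that of collagen III was not. Col1a1 (chromosome 11, 94936224 to 94953042, plus strand) had 1691, 1716, 2019 and 1838 CPM in the Gli2FFGli3FF libraries, against 4934 and 4866 CPM in the Gli3FF libraries. Both groups were tight and far apart (-1.43 ± 0.19 (SE), adjusted p = 0.0131). Col1a2, which encodes the second chain of the same protein, had 1982, 2006, 1986 and 2327 CPM in the Gli2FFGli3FF libraries, against 4564 and 4311 CPM in the Gli3FF libraries, a change of -1.10 ± 0.19, adjusted p = 0.0276. Col5a1, of the collagen V that nucleates collagen I fibrils, was lower as well (-1.06 ± 0.22, adjusted p = 0.0449). Col3a1 had 4805, 5874, 6329 and 5722 CPM in the Gli2FFGli3FF libraries, against 5957 and 5676 CPM in the Gli3FF libraries, and the groups overlapped (-0.03 ± 0.21, adjusted p = 0.956). The difference between Col1a1 and Col3a1 was not itself tested.

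Enzymes that process collagen gave 0 higher and 3 lower genes of 26 tested (at an unadjusted p under 0.05, 4 higher and 9 lower, and by DESeq2 2 and 8). They were Plod1, a lysyl hydroxylase, at 9.39 to 18.97 CPM in Gli2FFGli3FF libraries and 55.4 to 63.3 CPM in Gli3FF libraries (-2.07 ± 0.29, adjusted p = 0.0144), Pcolce, an enhancer of procollagen cleavage (-1.55 ± 0.25, adjusted p = 0.0227), and the procollagen protease Adamts2 (-1.19 ± 0.24, adjusted p = 0.0395).

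Elastic fibre and crosslinking genes gave 1 higher and 6 lower of 21. Mfap4, a microfibril-associated glycoprotein, had 59.6, 112, 175 and 180.4 CPM in the Gli2FFGli3FF libraries, against 1183 and 927 CPM in the Gli3FF libraries. Gli2FFGli3FF replicate 1 was the lowest, and all 4 were well below both Gli3FF libraries (-3.002 ± 0.40 (SE), adjusted p = 0.0134). Fbln5, a fibulin needed for elastic fibre assembly, had 61.2, 83.1, 67.98 and 81.3 CPM in the Gli2FFGli3FF libraries, against 334 and 217 CPM in the Gli3FF libraries, a change of -1.91 ± 0.24, adjusted p = 0.011. Tgm2, a transglutaminase that crosslinks matrix proteins, was lower (-1.47 ± 0.19, adjusted p = 0.0122), as was Fbln7 (-2.19 ± 0.33, adjusted p = 0.0173). The higher gene was Emilin2, at 46.3 to 54.96 CPM in Gli2FFGli3FF libraries and 14.4 to 19.7 CPM in Gli3FF libraries (1.57 ± 0.24, adjusted p = 0.0191).

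Small leucine-rich proteoglycans gave 1 higher and 5 lower of 14. Bgn, biglycan, had 774, 1086, 1339 and 1067 CPM in the Gli2FFGli3FF libraries, against 3378 and 2531 CPM in the Gli3FF libraries, with groups apart (-1.47 ± 0.26, adjusted p = 0.0277). Fmod, Podn and Prelp were lower to a similar extent (-1.88 ± 0.29, adjusted p = 0.0186 for Fmod, -1.87 ± 0.30, adjusted p = 0.0203 for Podn and -1.88 ± 0.31, adjusted p = 0.0237 for Prelp). Dcn, decorin, was at 7900.3 to 10554 CPM in Gli2FFGli3FF libraries and 13456 to 17911 CPM in Gli3FF libraries and did not pass (-0.69 ± 0.23, adjusted p = 0.135). Epyc, epiphycan, the higher gene, had 1.49 to 7.54 CPM in Gli2FFGli3FF libraries and no count in the Gli3FF libraries, at least 40.7-fold higher with a floor of 3 counts per library (adjusted p = 0.0377), or at least 23.4-fold without Gli2FFGli3FF replicate 3.

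Basement membrane genes gave 0 higher and 6 lower of 23 (at an unadjusted p under 0.05, 1 higher and 12 lower, and by DESeq2 1 and 12). Col15a1, a collagen that links basement membranes to the matrix around them, had 119, 129.5, 114 and 172 CPM in the Gli2FFGli3FF libraries, against 403 and 475 CPM in the Gli3FF libraries, a change of -1.72 ± 0.23 (SE), adjusted p = 0.0131. Col4a6 and Lamc3, a collagen IV and a laminin chain, were lower (-1.80 ± 0.25, adjusted p = 0.0136 for Col4a6 and -3.14 ± 0.43, adjusted p = 0.0137 for Lamc3). Hspg2, perlecan, was lower too (-1.44 ± 0.26, adjusted p = 0.0318). Col4a3, another collagen IV chain, was low and spread, with 1.43, 0.861, 5.39 and 8.37 CPM in the Gli2FFGli3FF libraries, against 42.4 and 73.6 CPM in the Gli3FF libraries (-3.86 ± 0.77, adjusted p = 0.0406). Sparc, a collagen-binding protein on 2 of the lists, had 2704, 2701, 2084 and 2132 CPM in the Gli2FFGli3FF libraries, against 6734 and 5122 CPM in the Gli3FF libraries, and the groups did not overlap (-1.30 ± 0.22, adjusted p = 0.0266).

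Matricellular and adhesive glycoproteins gave 1 higher and 5 lower of 25. Tgfbi, an adhesive protein induced by TGF-beta, had 28.3, 35.2, 50.5 and 47.2 CPM in the Gli2FFGli3FF libraries, against 276 and 248 CPM in the Gli3FF libraries. The groups were far apart (-2.70 ± 0.26 (SE), adjusted p = 0.00468), and the call held in all 6 fits without a library. Ecm1 and Postn, periostin, were lower (-1.59 ± 0.22, adjusted p = 0.0145 for Ecm1 and -1.26 ± 0.23, adjusted p = 0.0344 for Postn). Fn1, fibronectin, moved against the list, with 2100.4, 2152, 1151 and 949 CPM in the Gli2FFGli3FF libraries, against 296 and 258 CPM in the Gli3FF libraries. Gli2FFGli3FF replicates 1 and 2 were higher than replicates 3 and 4, and all were above the Gli3FF libraries (2.52 ± 0.41 (SE), adjusted p = 0.0229). Mesothelial markers were higher in the same libraries, and their part in the level of Fn1 was not tested.

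**Figure D3:**
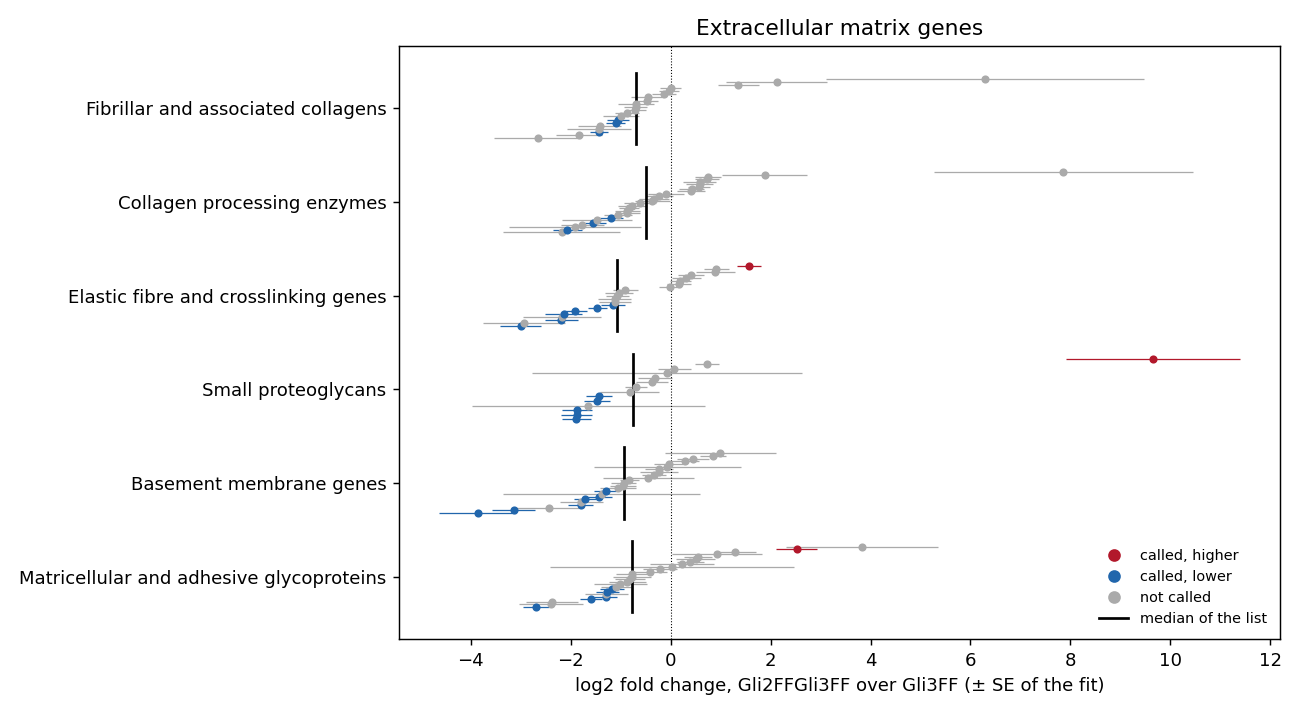
Each dot is the log2 fold change of Gli2FFGli3FF over Gli3FF of a tested gene of the 6 matrix lists, with the SE of the fit, drawn by list from top to bottom, and a black line marks each list's median. Blue dots are called lower and red dots called higher, and each of the 6 medians is below 0.

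Thy1, Serpinf1 and Penk, which come from 3 different lists, were lower. Thy1, a surface glycoprotein used to mark portal fibroblasts, had 49.8, 44.2, 67.2 and 81.8 CPM in the Gli2FFGli3FF libraries, against 339.9 and 265 CPM in the Gli3FF libraries. All Gli2FFGli3FF libraries were well below both Gli3FF libraries (-2.32 ± 0.28 (SE), adjusted p = 0.00858). Serpinf1, a secreted serpin that inhibits blood vessel growth and 1 of 5 lower genes among 32 matrix proteases and inhibitors, of which 0 were higher, had 238, 219, 285 and 296 CPM in the Gli2FFGli3FF libraries, against 1207 and 864 CPM in the Gli3FF libraries, a change of -1.997 ± 0.23, adjusted p = 0.00693. Penk, a precursor of enkephalin peptides found in some fibroblasts, was lower with more spread, at 83.2 to 321 CPM in Gli2FFGli3FF libraries and 811 to 1171 CPM in Gli3FF libraries (-2.47 ± 0.45, adjusted p = 0.0334). Penk is on a list of 25 adventitial fibroblast genes that did not move one way, with 3 higher and 2 lower and a median log2 change of 0.55. The higher genes of that list were Cd55, Gfpt2 and Anxa3 (1.27 ± 0.23, adjusted p = 0.0325 for Gfpt2 and 1.48 ± 0.32, adjusted p = 0.0483 for Anxa3), and leaving out 1 library gave 1 to 2 higher and 0 to 2 lower genes. Thy1 and Serpinf1 were called in all 6 fits without a library and Penk in 1 of them. Of the mesenchymal transcription factors, 48 were tested, with 2 higher and 4 lower. The lower ones included Osr2, Tcf21 and the T-box factor Tbx3 (-2.18 ± 0.40, adjusted p = 0.0344).

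Among growth factors that act on epithelium, 26 were tested, with 2 higher and 1 lower. Nrg1, neuregulin 1, a ligand of ErbB receptors, had 1.34, 3.26, 2.89 and 5.07 CPM in the Gli2FFGli3FF libraries, against 27.9 and 55.9 CPM in the Gli3FF libraries. Every Gli2FFGli3FF library was below both Gli3FF libraries (-3.73 ± 0.49 (SE), adjusted p = 0.0132). Fgf9 had 1.38, 1.91, 12.5 and 13.7 CPM in the Gli2FFGli3FF libraries, against 0.0581 and 0.0504 CPM in the Gli3FF libraries, higher in all 4 libraries but with replicates 1 and 2 well below 3 and 4 (6.98 ± 1.46, adjusted p = 0.0461). Fgf2 was higher too (1.78 ± 0.37, adjusted p = 0.047). Both FGF calls held in 1 of the 6 fits without a library. Among 31 tested angiogenic and vasoactive factors, 1 was higher and 2 lower. The higher one was Gucy1a1, a subunit of the nitric oxide receptor, at 21.9 to 71.8 CPM in Gli2FFGli3FF libraries and 5.02 to 5.79 CPM in Gli3FF libraries (2.81 ± 0.55, adjusted p = 0.0382). The lower ones were Pgf, placental growth factor, and the endothelin receptor Ednra (-1.93 ± 0.28, adjusted p = 0.0164 for Pgf and -1.83 ± 0.29, adjusted p = 0.0201 for Ednra). Without either Gli3FF library, 0 genes of this list passed.

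Genes of the circadian clock were the list with the largest share of calls among pathway lists of at least 10 tested genes, with 0 higher and 9 lower of 19 tested (at an unadjusted p under 0.05, 2 higher and 13 lower, and by DESeq2 2 and 11). The clock runs on a feedback loop in which Arntl with Clock or Npas2 binds E-boxes and drives Per and Cry genes, Nr1d1, Nr1d2 and the output factors Dbp, Tef and Hlf, and the products of Per, Cry and Nr1d genes repress it in turn. The list's median log2 change was -2.22. Collection times are not given in the labels used here, and their part in these values was not tested.

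The promoters of the called clock genes that hold an E-box, CACGTG, which reads the same on both strands, are shown because these letters are the element through which the loop acts. They are RefSeq sequences (GRCm38.p6, 250 bases before to 50 bases after the start) with the E-box in capitals, for Ciart (chr3:95882179-95882478, minus strand), Per1 (chr11:69098699-69098998, plus strand), Tef (chr15:81811164-81811463, plus strand) and Bhlhe41 (chr6:145865371-145865670, minus strand).
Ciart: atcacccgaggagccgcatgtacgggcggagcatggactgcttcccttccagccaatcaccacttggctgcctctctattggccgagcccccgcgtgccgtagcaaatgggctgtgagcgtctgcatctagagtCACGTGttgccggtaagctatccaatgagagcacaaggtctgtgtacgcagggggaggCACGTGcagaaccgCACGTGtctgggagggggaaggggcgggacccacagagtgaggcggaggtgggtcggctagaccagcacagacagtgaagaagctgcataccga
Per1: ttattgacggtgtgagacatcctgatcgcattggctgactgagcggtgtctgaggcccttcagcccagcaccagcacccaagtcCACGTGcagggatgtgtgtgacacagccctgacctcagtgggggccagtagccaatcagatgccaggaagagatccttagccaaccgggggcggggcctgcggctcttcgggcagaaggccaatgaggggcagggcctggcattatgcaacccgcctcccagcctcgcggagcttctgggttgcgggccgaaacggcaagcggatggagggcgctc
Tef: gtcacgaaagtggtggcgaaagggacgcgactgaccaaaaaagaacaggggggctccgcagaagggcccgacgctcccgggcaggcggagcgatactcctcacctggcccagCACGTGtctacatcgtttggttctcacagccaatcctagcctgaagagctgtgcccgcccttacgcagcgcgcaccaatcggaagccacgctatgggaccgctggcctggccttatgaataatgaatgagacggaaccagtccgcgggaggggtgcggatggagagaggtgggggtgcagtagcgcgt
Bhlhe41: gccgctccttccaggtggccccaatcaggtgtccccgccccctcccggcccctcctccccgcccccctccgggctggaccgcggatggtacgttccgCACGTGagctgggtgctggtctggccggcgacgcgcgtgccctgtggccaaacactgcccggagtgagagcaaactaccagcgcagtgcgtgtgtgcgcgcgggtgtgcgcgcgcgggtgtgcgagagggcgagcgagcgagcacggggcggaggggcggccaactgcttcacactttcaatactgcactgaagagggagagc
Ciart has 3 matches in this window, and each of the others shown has 1. The E-box was in 6 of the 21 promoters found for 16 of the 19 tested clock genes (28.6%), and in 2349 of all 32851 promoters (7.15%). By gene it was in 5 of those 16, of which 4 are lower and the other is Cry1, which did not pass. Of the same 16 genes 9 were lower, and 4 of those 9 hold the E-box (44.4%). The lower genes Nr1d1, Nr1d2, Per3, Dbp and Hlf have no match in these windows. A match describes the sequence and does not show that a factor binds there.

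Of the repressors of the loop, both Nr1d genes, Per1, Per3, Ciart and Bhlhe41 were lower, while Per2 and the Cry genes did not pass the test. Nr1d1 (chromosome 11, 98767932 to 98775333, minus strand), a nuclear receptor that represses Arntl, had 17.3, 8.04, 11.5 and 8.05 CPM in the Gli2FFGli3FF libraries, against 201 and 206 CPM in the Gli3FF libraries. The Gli3FF libraries were nearly equal, and every Gli2FFGli3FF library was more than 10-fold below them (-4.18 ± 0.33 (SE), adjusted p = 0.00246). Its relative Nr1d2 had 5.68, 10.6, 11.6 and 5.39 CPM in the Gli2FFGli3FF libraries, against 66.01 and 50.7 CPM in the Gli3FF libraries, a change of -2.81 ± 0.36, adjusted p = 0.0119. Per1 had 14.6, 27.04, 16.2 and 20.6 CPM in the Gli2FFGli3FF libraries, against 89.8 and 92.7 CPM in the Gli3FF libraries, and the groups did not overlap (-2.22 ± 0.27, adjusted p = 0.00942). Per3 was lower (-4.65 ± 0.94, adjusted p = 0.0415), while Per2, at 2.2 to 6.19 CPM in Gli2FFGli3FF libraries and 9.45 to 24.4 CPM in Gli3FF libraries, did not pass (-2.35 ± 0.57, adjusted p = 0.0688). Ciart, a repressor of the same loop, had no count in the 4 Gli2FFGli3FF libraries and 13.5 and 13.02 CPM in the Gli3FF libraries, at least 112-fold lower with a floor of 3 counts per library (adjusted p = 0.011). Bhlhe41, a repressor that competes for E-boxes, was lower too (-2.57 ± 0.34, adjusted p = 0.0132). Cry1 was at 1.46 to 5.49 CPM in Gli2FFGli3FF libraries and 2.15 to 2.27 CPM in Gli3FF libraries, with overlapping groups (0.38 ± 0.79, adjusted p = 0.856), and Cry2 was at 5.19 to 10.5 CPM in Gli2FFGli3FF libraries and 12.7 to 17.9 CPM in Gli3FF libraries (-1.05 ± 0.38, adjusted p = 0.165).

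The output factors were lower too. Hlf had 1.57, 0.809, 1.64 and 1.93 CPM in the Gli2FFGli3FF libraries, against 62.8 and 21.6 CPM in the Gli3FF libraries, with Gli3FF replicate 1 well above replicate 2 (-4.83 ± 0.50 (SE), adjusted p = 0.00564). Tef had 6.97, 1.96, 6.55 and 4.55 CPM in the Gli2FFGli3FF libraries, against 56.9 and 43.8 CPM in the Gli3FF libraries, a change of -3.34 ± 0.46, adjusted p = 0.0136. Dbp had 0, 0.0261, 0.345 and 0 CPM in the Gli2FFGli3FF libraries, against 30.9 and 11.5 CPM in the Gli3FF libraries. It was all but absent from the Gli2FFGli3FF libraries (adjusted p = 0.0155). The activator genes Arntl, Clock and Npas2 did not pass the test, nor did Nfil3, a repressor that opposes Dbp, Tef and Hlf at their sites. Arntl had 15.1, 16.3, 11.9 and 20.03 CPM in the Gli2FFGli3FF libraries, against 0 and 4.68 CPM in the Gli3FF libraries (2.75 ± 1.30, adjusted p = 0.272). Npas2 and Nfil3 were at 7.65 to 18.7 CPM in Gli2FFGli3FF libraries and 1.05 to 4.94 CPM in Gli3FF libraries for Npas2 and 14.97 to 23.8 CPM in Gli2FFGli3FF libraries and 4.73 to 10.7 CPM in Gli3FF libraries for Nfil3. Arntl, Npas2 and Nfil3 were above both Gli3FF libraries in every Gli2FFGli3FF library, whereas Clock, at 25.8 to 57.6 CPM in Gli2FFGli3FF libraries and 14.3 to 34.2 CPM in Gli3FF libraries, had groups that overlap (0.74 ± 0.43, adjusted p = 0.378). Nr1d1 and Hlf were called in all 6 fits without a library and also with the ribosomal RNA share as a covariate (adjusted p = 0.0428 each), whereas the number of lower clock genes was 3 without Gli3FF replicate 1 and 2 without Gli3FF replicate 2.

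**Figure D4:**
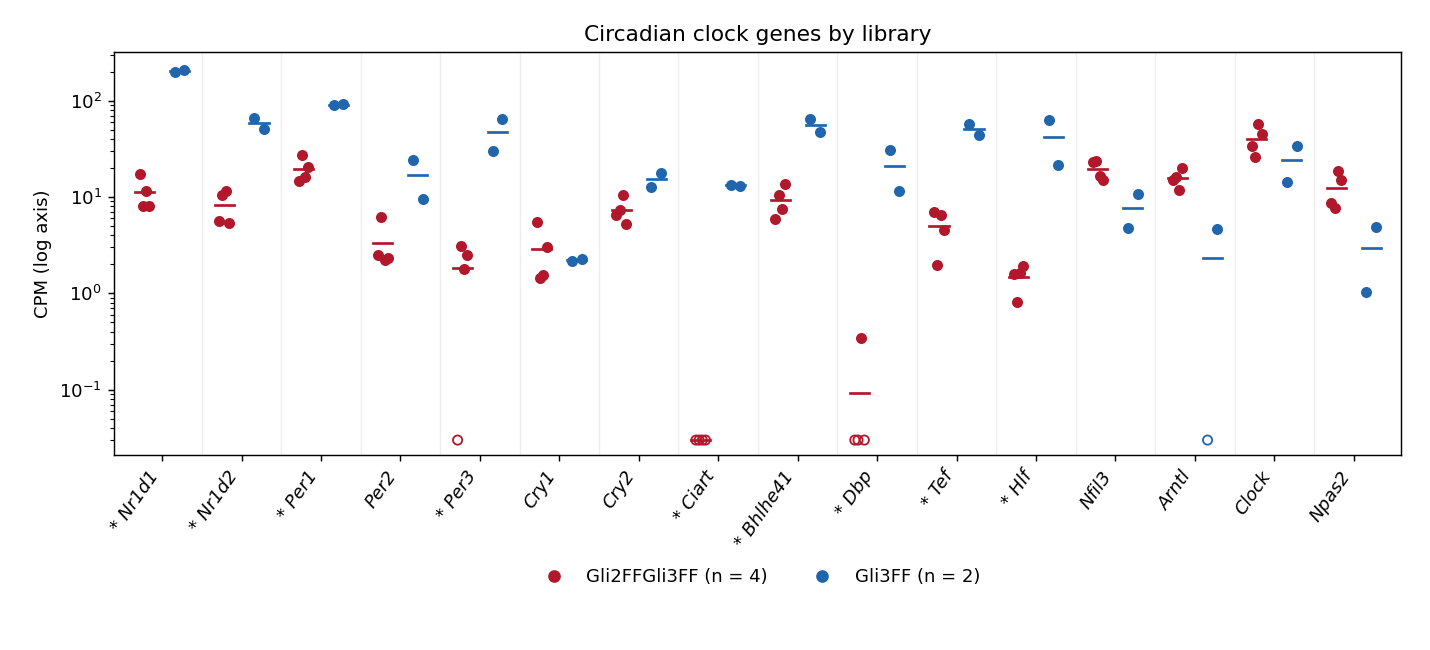
Each dot is the CPM of a clock gene in a library, on a log axis, with Gli2FFGli3FF (n = 4) in red to the left of Gli3FF (n = 2) in blue and a bar at each group's mean; open circles stand for values at or below 0.03 CPM, drawn at that line, and an asterisk marks a called gene. The red dots lie below the blue ones for the called genes and for Per2 and Cry2, above them for Nfil3, Arntl and Npas2, and overlap them for Cry1 and Clock.

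Mesothelial markers, which define the epithelium-like lining of the abdominal organs, were higher. All 12 tested members had a positive log2 change, with a median of 3.68, and 3 passed the test. Krt18 and Muc16, with no count in Gli3FF, could enter the test only through Gli2FFGli3FF libraries, so their sign was given in advance. Slpi, a secreted protease inhibitor, had 382, 212, 133 and 224 CPM in the Gli2FFGli3FF libraries, against 25.5 and 14.2 CPM in the Gli3FF libraries. The groups were well apart (3.58 ± 0.50 (SE), adjusted p = 0.0145). Gpm6a, a membrane glycoprotein, had 89.6, 108, 40.8 and 60.7 CPM in the Gli2FFGli3FF libraries, against 10.4 and 7.33 CPM in the Gli3FF libraries, a change of 3.08 ± 0.45, adjusted p = 0.0164. Wt1, a transcription factor of mesothelium and of some mesenchyme, had 81.7, 73.5, 32.1 and 44.9 CPM in the Gli2FFGli3FF libraries, against 7.46 and 9.92 CPM in the Gli3FF libraries, a change of 2.74 ± 0.45, adjusted p = 0.0224. Lrrn4, at 11.7 to 26.6 CPM in Gli2FFGli3FF libraries and 0.261 to 2.34 CPM in Gli3FF libraries, missed the threshold (3.84 ± 0.84, adjusted p = 0.0526), and the defining marker Msln, at 0.258 to 7.92 CPM in Gli2FFGli3FF libraries and 0 to 0.581 CPM in Gli3FF libraries, had groups that overlap. Dmkn, a secreted epithelial protein named for the size of its change, had 70.04, 79.5, 74.1 and 63.5 CPM in the Gli2FFGli3FF libraries, against 3.98 and 3.68 CPM in the Gli3FF libraries, with little spread in either group (4.23 ± 0.26 (SE), adjusted p = 0.0013), and it was called in all 6 fits without a library and with the ribosomal RNA covariate. Aldh1a2, an enzyme of retinoic acid synthesis that mesothelium and fibroblasts make, was at 45.1 to 145 CPM in Gli2FFGli3FF libraries and 12.1 to 14.96 CPM in Gli3FF libraries (2.73 ± 0.50, adjusted p = 0.0326). Between 1 and 4 mesothelial markers passed when a library was left out, the fewest without Gli3FF replicate 2.

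Chemokine, interferon response and antigen presentation genes gave few calls, and those were higher. Of 18 chemokines tested, 2 were higher and 0 lower (at an unadjusted p under 0.05, 4 higher and 1 lower, and by DESeq2 3 and 1). Ccl7, which draws monocytes, had 172, 104, 85.6 and 104 CPM in the Gli2FFGli3FF libraries, against 18.3 and 4.56 CPM in the Gli3FF libraries, a change of 3.35 ± 0.60, adjusted p = 0.0318. Cxcl5, which draws neutrophils, had 207, 216, 80.9 and 59.2 CPM in the Gli2FFGli3FF libraries, against 16.9 and 11.1 CPM in the Gli3FF libraries, with replicates 1 and 2 above 3 and 4 (3.33 ± 0.64, adjusted p = 0.0366). Cebpb, a transcription factor of the acute-phase response and the 1 higher gene of 26 IL-6 family and acute-phase genes, of which 0 were lower, had 42.2, 26.5, 24.6 and 34.8 CPM in the Gli2FFGli3FF libraries, against 3.57 and 3.22 CPM in the Gli3FF libraries, and the groups were far apart (3.24 ± 0.35 (SE), adjusted p = 0.00571). Among 39 interferon response genes, 2 were higher, Ifi204 (1.83 ± 0.23, adjusted p = 0.0119) and Iigp1 (1.97 ± 0.34, adjusted p = 0.0262), and 0 lower (at an unadjusted p under 0.05, 11 higher and 4 lower, and by DESeq2 8 and 1).

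All 8 tested MHC class II genes had a positive log2 change and 2 passed. Cd74, the invariant chain, had 88.6, 109.9, 81.9 and 52.5 CPM in the Gli2FFGli3FF libraries, against 14.1 and 11.6 CPM in the Gli3FF libraries, a change of 2.70 ± 0.35, adjusted p = 0.0119, and H2-Aa had 17.4 to 37.8 CPM in Gli2FFGli3FF libraries and 4.07 to 5.89 CPM in Gli3FF libraries (2.45 ± 0.41, adjusted p = 0.0237). Of 16 immune markers, 9 were tested, 7 of them with a positive log2 change and 0 called, with a median of 3.03. Their sums are given above, and Ptprc, the pan-leukocyte gene, was at 7.92, 0.809, 0 and 2.61 CPM in the Gli2FFGli3FF libraries and 0 in both Gli3FF libraries. Ptprc and Adgre1, with no count in Gli3FF, could enter the test only through Gli2FFGli3FF libraries. The count of positive signs was thus given in part in advance. The part of immune cells in the class II values was not tested. B2m, the light chain of MHC class I, was the 1 higher gene of 19 class I genes (1.26 ± 0.26, adjusted p = 0.0425). Complement genes gave 1 higher and 1 lower of 24, both of them inhibitors of complement on the cell surface. Cd55 had 165 to 219 CPM in Gli2FFGli3FF libraries and 40.7 to 49.6 CPM in Gli3FF libraries (2.08 ± 0.24, adjusted p = 0.00698), and Cd59a had 18.3 to 29.4 CPM in Gli2FFGli3FF libraries and 54.6 to 72.7 CPM in Gli3FF libraries (-1.42 ± 0.27, adjusted p = 0.037). Leaving out 1 library gave 0 to 1 higher and 0 to 3 lower complement genes. Without Gli3FF replicate 2, 0 chemokine, interferon response or class II genes passed.

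Small structured RNAs were higher. These are short RNAs with stable folds, many made by RNA polymerase III and without a poly(A) tail, among them 7SK, which holds back transcription elongation, 7SL of the signal recognition particle, Y RNAs and 5S ribosomal RNA. Of 140 tested genes with such a biotype, 27 were higher and 0 lower (19.3% called; at an unadjusted p under 0.05, 72 higher and 0 lower, and by DESeq2 59 and 0). The median log2 change was 3.82, or 2.75 with the 29 genes that had no count in a group set to their bound. Those 29 genes could enter the test only through the group in which they had counts. The filter on low counts therefore set the one-sided counts and the median in part. Rn7sk, the 7SK RNA (chromosome 9, 78175303 to 78175633, minus strand), had 537, 631, 570.1 and 562 CPM in the Gli2FFGli3FF libraries, against 44.8 and 20.8 CPM in the Gli3FF libraries. The Gli2FFGli3FF libraries were tight and more than 10-fold above both Gli3FF libraries (4.13 ± 0.38 (SE), adjusted p = 0.00445). The 7SL genes Rn7s1 and Rn7s2, which are near-identical copies whose reads may be split between them, had 428, 784, 1186 and 716 CPM in the Gli2FFGli3FF libraries, against 10.2 and 3.9 CPM in the Gli3FF libraries for Rn7s1 and 228, 464, 625 and 414 CPM in the Gli2FFGli3FF libraries, against 4.27 and 1.51 CPM in the Gli3FF libraries for Rn7s2. Both passed (6.79 ± 0.66, adjusted p = 0.00468 for Rn7s1). Of 31 tested 5S ribosomal RNA genes, 9 were higher and all 31 had a positive log2 change, but these copies also share their sequence. Their summed level was 23.1 to 158 CPM in Gli2FFGli3FF libraries and 0.428 to 0.639 CPM in Gli3FF libraries. So near 0 in Gli3FF, they could pass the filter on low counts only through Gli2FFGli3FF, and their shared sign was largely given in advance.

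The Y RNA Rny3 shows how short these transcripts are. It has 102 bases in GENCODE M21 (chr6:47781624-47781725, plus strand).
Rny3: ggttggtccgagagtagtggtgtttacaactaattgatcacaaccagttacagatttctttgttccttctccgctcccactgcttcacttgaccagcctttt
It had 5.3, 9.87, 11.8 and 14.4 CPM in the Gli2FFGli3FF libraries, against 0.378 and 0.302 CPM in the Gli3FF libraries, with no overlap (4.91 ± 0.64, adjusted p = 0.013). Lars2, a mitochondrial leucyl-tRNA synthetase whose gene overlaps a ribosomal RNA-like repeat in mouse, so that its reads are uncertain, had 8410.2, 5802, 9761 and 5213 CPM in the Gli2FFGli3FF libraries, against 1516 and 620.1 CPM in the Gli3FF libraries (2.77 ± 0.46, adjusted p = 0.0237). Rpl29, the 1 higher gene of 78 cytosolic ribosomal protein genes, had 154 to 271 CPM in Gli2FFGli3FF libraries and 12.97 to 21.3 CPM in Gli3FF libraries (3.46 ± 0.38, adjusted p = 0.00585). The ribosomal RNA share was higher in the libraries of the same group, apart from an overlap at Gli3FF replicate 1, and leaving out 1 library gave 8 to 26 higher small RNAs, the fewest without Gli3FF replicate 2. With that share as a covariate 4 passed, Rn7sk among them (adjusted p = 0.0465).

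Some of the largest changes fell outside these groups. Ifi202b, an interferon-inducible gene known to vary between mouse strains, had 66.2, 76.7, 58.3 and 58.3 CPM in the Gli2FFGli3FF libraries, against 0 and 0.504 CPM in the Gli3FF libraries. It was all but absent in Gli3FF and even across Gli2FFGli3FF (7.93 ± 0.88 (SE), adjusted p = 0.00595). Khdrbs3, an RNA-binding splicing regulator, had 22.8, 18.8, 22.5 and 18.3 CPM in the Gli2FFGli3FF libraries, against 0.697 and 1.39 CPM in the Gli3FF libraries (4.30 ± 0.43, adjusted p = 0.00534). Dhrs9, a dehydrogenase, had 3.86 to 31.1 CPM in Gli2FFGli3FF libraries and no count in the Gli3FF libraries, at least 148-fold higher with a floor of 3 counts per library (adjusted p = 0.0318), or at least 69.3-fold without Gli2FFGli3FF replicate 2. Cdh3, P-cadherin, and the ephrin Efnb2 were at 4.35 to 20.9 CPM in Gli2FFGli3FF libraries and 0.327 to 0.842 CPM in Gli3FF libraries for Cdh3 and 7.19 to 29.7 CPM in Gli2FFGli3FF libraries and 0.145 to 1.11 CPM in Gli3FF libraries for Efnb2. On the lower side, Hspb7, a small heat shock protein, had 2.72, 3.16, 4.65 and 6.24 CPM in the Gli2FFGli3FF libraries, against 49.7 and 44.7 CPM in the Gli3FF libraries (-3.49 ± 0.36, adjusted p = 0.00556). Iyd, an iodotyrosine deiodinase, was at 7.78 to 35.8 CPM in Gli2FFGli3FF libraries and 226 to 296 CPM in Gli3FF libraries, and the lipid transporter Abcg1 was at 1.23 to 6.72 CPM in Gli2FFGli3FF libraries and 40.5 to 49.3 CPM in Gli3FF libraries. Cyp2e1, a cytochrome P450 that hepatocytes make in quantity, had 58.1, 40.97, 49.1 and 102 CPM in the Gli2FFGli3FF libraries, against 622 and 542 CPM in the Gli3FF libraries (-3.22 ± 0.35 (SE), adjusted p = 0.00571), in libraries where Alb and Apob had no count. Of 5 tested Fmo genes, which encode flavin monooxygenases, 3 were lower and 0 higher, but this set was formed by symbol and is not one of the gene lists.

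The 2 Gli2FF libraries, from mice with the same Cre and reporter in which Gli2 alone is flanked, give the levels without a Gli3 deletion, on the same scale and with no test. Gli3 was at 32.5 and 21.3 CPM in Gli2FF, above all 6 libraries with the Gli3FF alleles. Gli2 was at 8.82 and 4.9 CPM, above all 4 Gli2FFGli3FF libraries. The higher of these values also exceeded the 6.3 CPM of Gli3FF replicate 1, so the Gli2 level did not simply follow the Gli2FF label. Several of the named genes that separated Gli2FFGli3FF from Gli3FF lay, in Gli2FF, near the Gli2FFGli3FF level. Bmp4 was at 17.2 and 13.9 CPM in Gli2FF, Osr2 at 13.2 and 9.4 CPM, Col1a1 at 1671 and 2049.8 CPM and Thy1 at 40.2 and 28.1 CPM. For Fn1 the Gli2FF libraries had 1509.5 and 2415 CPM, for Wt1 130.4 and 73.6 CPM and for Sfrp2 15.8 and 45.7 CPM. Gli1, in contrast, was at 8.92 and 3.35 CPM, above all 4 Gli2FFGli3FF libraries, and Hhip at 0.327 and 0.703 CPM, below all 4.

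The small RNAs and some clock genes lay differently. Rn7sk was at 117 and 67.3 CPM in Gli2FF and Rn7s1 at 14.6 and 11.2 CPM, far below the Gli2FFGli3FF libraries, and Lars2 was at 1075 and 517 CPM. Nr1d1 was at 54.9 and 45.7 CPM and Per1 at 63.5 and 36.1 CPM, between the other 2 groups. The clock genes did not all lie so. Nr1d2, at 43.6 and 23.1 CPM in Gli2FF, was also between the groups. Bhlhe41, at 9.44 and 8.46 CPM, and Npas2, at 13.8 and 13.2 CPM, lay within the Gli2FFGli3FF range. Ifi202b was at 0.0327 and 62.1 CPM, so it differed as much between the 2 Gli2FF animals as between the groups compared here.

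**Figure D5:**
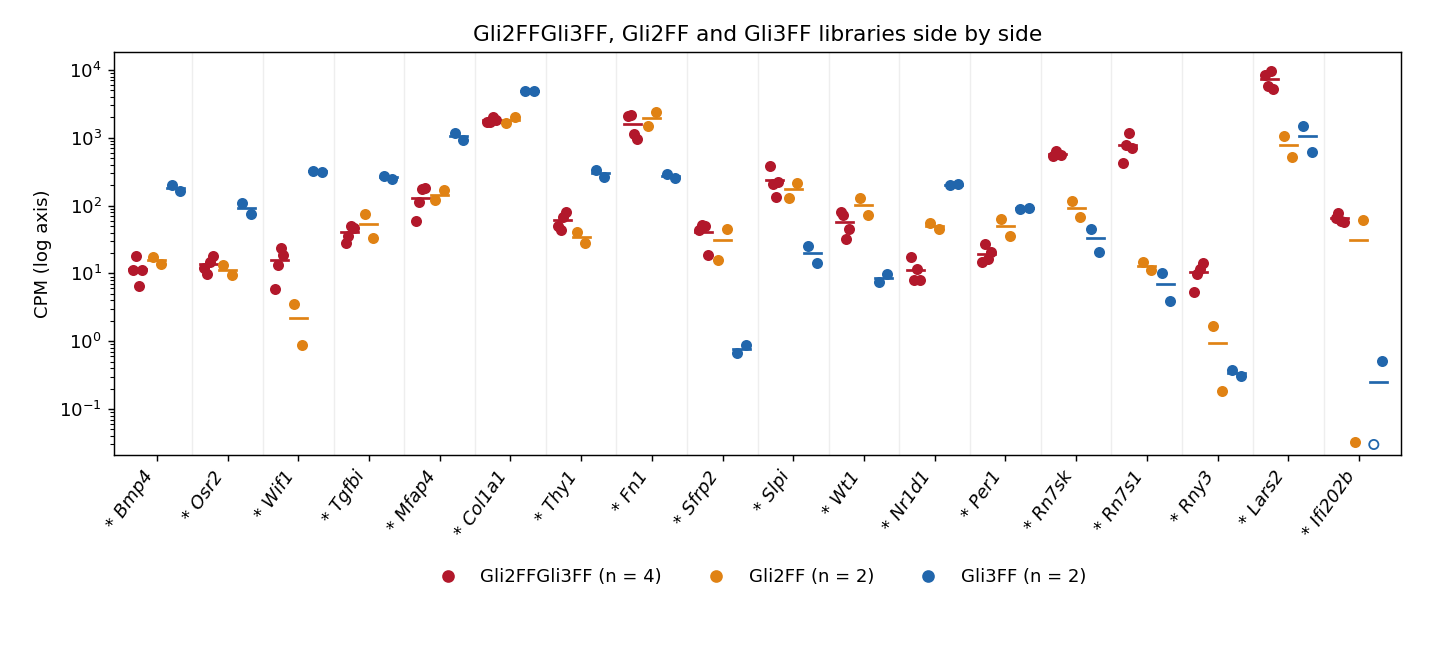
Each dot is the CPM of a gene in a library, on a log axis, with Gli2FFGli3FF (n = 4) in red, Gli2FF (n = 2) in orange and Gli3FF (n = 2) in blue from left to right and a bar at each group's mean; the open circle stands for a value at or below 0.03 CPM. Orange dots lie near the red ones for Bmp4, Osr2, Col1a1, Fn1 and Wt1, between red and blue for Nr1d1 and Per1, and well below the red ones for Rn7sk, Rn7s1 and Lars2.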

How the data were processed

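Per the labels' protocols, cells were sorted from microdissected ducts and their RNA was amplified by a Smart-seq3-type protocol. The authors deposited 1 table of whole-number counts for each Pdgfra genotype, without molecular identifiers. The reads were placed on mm10 per the submitters' processing notes. Neither the aligner nor the counter nor the use of strand is named in those notes or the labels, so overlapping, antisense and near-identical genes are uncertain. Columns were matched to libraries by title. Only the 6 libraries compared entered the edgeR 4.0.16 quasi-likelihood fit (R 4.3.3, filterByExpr, TMM), which also gives the SEs, and a gene was called where its Benjamini-Hochberg adjusted p was below 0.05. Such p-values reflect the spread over these libraries, which may be partly technical. Library measures were compared by two-sided exact permutation over 15 regroupings. Biotypes and positions are from GENCODE M21. The test was tried on simulated data.

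The genes compared and the gene lists were chosen with earlier results of these data known. Named genes are the Hedgehog genes, the 12 largest rises and 12 largest falls among calls (mean log2 CPM of at least 3, groups apart, no clone or predicted name) and, in each list, the 4 calls of smallest p, of which some are left out; a few genes are not reported here. Other members may be named where their list is described. Other settings were RLE and upper quartile scaling, the ribosomal RNA locus left out, DESeq2 1.42.0, voom of limma 3.58.1, other filters, wider fits, the replicate block, the ribosomal RNA share as covariate, sex-linked genes left out and each library left out. Protein-coding genes only was chosen after seeing the data.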

Additional observations from a re-analysis of the deposited data

Results flagged for a closer look

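In 128 sets of 4 Gli2FFGli3FF values (named genes and library measures), 7 had 1 library far from the other 3 by Dixon's criterion, where chance gives about 1 in 20. Replicate 3 was apart in 4 of them. It was high for Osr1 (71.9 CPM), Epyc (7.54 CPM) and Rpl29 (271 CPM), and for Dbp it had 0.345 CPM where the other 3 had at most 0.0261 CPM. Replicate 4 was high for Col1a2 (2327 CPM), and replicate 2 for Per2 (6.19 CPM) and Anxa3 (64.7 CPM). In each of the 7 sets, Gli2FFGli3FF and Gli3FF still did not overlap. For the called genes Col1a2, Epyc, Dbp, Rpl29 and Anxa3 this was given in advance, because the groups of every called gene lay apart.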

How the results depend on the processing

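The count of 514 calls moved to 2104 with DESeq2, 1610 with no filter on low counts, 832 in a fit of 18 Pdgfra libraries without wild type, 1254 in a fit of all 23, 785 over protein-coding genes only and 8 with the ribosomal RNA share as covariate. It was 68 to 368 when a library was left out. With the replicate number as a block it was 1064, of which 435 were among the 514; same-numbered libraries deviated together with r of 0.0857 and 0.0514, and the numbers name nothing shared. The share of higher genes among calls was 48.8%, against 59.6% with DESeq2, 31.1% with voom, 62.5% with the covariate and 61.8% without Gli3FF replicate 1. The median log2 change of all genes shifted to 0.12 with the covariate and 0.22 without Gli3FF replicate 2. The cause of these shifts was not tested.

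Gli2 passed with no filter (-1.91, adjusted p = 0.0366) and in the fit of all 23 libraries (-1.85, adjusted p = 0.0327), and its log2 change was -2.48 to -0.90 without single libraries and -0.54 (adjusted p = 0.813) with the ribosomal RNA share as covariate; Gli3 passed in none of the settings run. The sign turned for 4 uncalled genes. With the covariate the log2 change of Pdgfra was 0.12, and that of Col3a1 was 0.015 in the fit of all 23 libraries and 0.0088 over protein-coding genes. Without single libraries the change was -0.096 to 0.36 for Smo, -0.15 to 0.59 for Cry1, -0.25 to 0.069 for Pdgfra and -0.10 to 0.028 for Col3a1.

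Of 91 called genes named here, 60, 43, 55 and 70 were still called without Gli2FFGli3FF replicates 1 to 4, 33 without Gli3FF replicate 1, 21 without Gli3FF replicate 2 and 4 with the covariate; none changed sign. For the fits without a library the kept signs were given in advance, because the groups of every called gene lay apart. How far the spread of the 2 Gli3FF animals and the counting depth each limit precision was not tested.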

Other observations

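A cluster of near-identical genes on chromosome 2, Gm13698 to Gm13691 (83955693 to 83993045, mm10), was higher in Gli2FFGli3FF. All 7 tested members (Gm13691 and Gm13693 to Gm13698) passed the test, with a median log2 change of 4.20. Their summed level was 34.1 to 61.2 CPM in Gli2FFGli3FF libraries and 1.74 to 3.80 CPM in Gli3FF libraries. Gm13691 was at 24.9 and 6.14 CPM in the 2 Gli2FF libraries. Cwc22, a splicing factor gene elsewhere on the same chromosome, had 26.002, 60.7, 49.5 and 80.5 CPM in the Gli2FFGli3FF libraries, against 5.84 and 6.27 CPM in the Gli3FF libraries (log2 change 3.16, edgeR adjusted p = 0.0171), and 202 and 47.6 CPM in the Gli2FF libraries. These genes were picked after their values were seen, and reads can be split between copies.

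Clustered histone genes, whose transcripts mostly lack a poly(A) tail, gave 4 higher and 0 lower of 47 tested, with a positive log2 change in 43 and a median of 1.94. Their summed level was 272 to 515 CPM in Gli2FFGli3FF libraries and 98.7 to 124 CPM in Gli3FF libraries. This set too was chosen after its values were seen.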
